A study of Mus musculus with 786 samples.

Results

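Among haematopoietic stem cells and multipotent precursors sorted from mouse bone marrow, 84 of 373 single cells held Cd74 at a level of 1 FPKM or more, and these Cd74-positive cells are described here. FPKM is a read count scaled to transcript length and to the library's mapped reads. Cells were taken from wells labelled as holding 1 cell, 460 in all, of which 373 had at least 1000 genes at FPKM 1 or more. The remaining 289 cells, with Cd74 below FPKM 1, served as the comparison within each plate. Marrow donors were C57BL/6 mice aged 6 to 8 weeks. The gate for haematopoietic stem cells (HSC) was CD48-, CD150+, CD135-, CD34-, and first multipotent precursors (MPP1) differed from it by being CD34+. There were 3 HSC plates and 2 MPP1 plates from normal mice, and 1 plate of each type from mice that had been bled; the labels do not say how or when they were bled, or how many mice gave a plate. HSC plate 3 was captured on a C1 Fluidigm device with an RNA spike-in, and its growth note names both normal and bled mice; the other plates were made by Smart-seq.

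CD74 is the invariant chain of the MHC class II pathway. It binds the newly made class II alpha and beta chains in the endoplasmic reticulum, blocks their peptide groove and directs them to endosomes, where proteases remove it and the chaperone DM exchanges its last fragment for an antigenic peptide. On the cell surface it is also a receptor for the cytokine MIF. Class II genes and Cd74 share a promoter architecture in which RFX, CREB and NF-Y proteins assemble at X and Y boxes and recruit the coactivator CIITA, and interferon gamma induces them in many cell types. Dendritic cells, B cells and macrophages are the classical sites of high expression.

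H2-Aa encodes a class II alpha chain, H2-Eb1 a class II beta chain and H2-DMb1 a chain of the chaperone. The promoters of these 3 genes are shown so that the letters shared between genes measured together below can be seen. They are RefSeq sequences of build GRCm38.p6, 250 bases before to 50 bases after the annotated start, written 5' to 3' in the direction of transcription. H2-Aa lies at chr17:34287774-34288073 on the minus strand, H2-Eb1 at chr17:34305617-34305916 on the plus strand and H2-DMb1 at chr17:34152941-34153240 on the plus strand. Capitals mark GATTGG, the core of the NF-Y site in the Y box, on either strand, and GATGATG, a stretch of the X box region. Both strings were chosen after these promoters had been read.
H2-Aa: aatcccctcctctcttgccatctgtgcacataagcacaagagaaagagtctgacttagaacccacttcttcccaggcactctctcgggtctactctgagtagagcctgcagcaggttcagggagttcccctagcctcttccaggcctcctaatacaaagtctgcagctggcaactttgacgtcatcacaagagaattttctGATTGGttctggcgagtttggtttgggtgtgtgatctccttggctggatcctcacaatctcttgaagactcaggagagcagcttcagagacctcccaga
H2-Eb1: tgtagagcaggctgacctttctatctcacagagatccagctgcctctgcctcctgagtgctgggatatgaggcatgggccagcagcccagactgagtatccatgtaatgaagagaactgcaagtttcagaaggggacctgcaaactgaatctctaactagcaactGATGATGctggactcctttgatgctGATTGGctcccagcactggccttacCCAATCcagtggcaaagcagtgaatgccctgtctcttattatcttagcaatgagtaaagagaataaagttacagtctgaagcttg
H2-DMb1: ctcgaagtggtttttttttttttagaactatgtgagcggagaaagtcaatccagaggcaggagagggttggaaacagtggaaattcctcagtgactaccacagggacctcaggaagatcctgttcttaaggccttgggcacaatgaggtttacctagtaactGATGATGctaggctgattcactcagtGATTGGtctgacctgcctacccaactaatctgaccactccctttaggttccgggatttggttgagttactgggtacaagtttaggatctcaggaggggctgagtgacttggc
GATTGG stands 49 bases before the start in H2-Aa, 60 bases before it in H2-Eb1 and 62 bases before it in H2-DMb1. H2-Eb1 has a further copy on the opposite strand, 35 bases before the start. GATGATG was found in H2-Eb1, H2-DMb1 and H2-DMb2, in each case upstream of GATTGG. Among all 32851 RefSeq promoters of the same length, 16.1% held GATTGG on either strand and 3.48% held GATGATG. A match in these letters describes the sequence and is not evidence of binding in these cells.

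Cd74 was either well above the threshold or not detected in most cells. In the positive cells it ran from 1.03 to 3076 FPKM with a median of 133.5, and 72 of the 84 cells had at least 10 FPKM. Of the 289 negative cells, 4 had any value above 0. The cells just inside the threshold had 1.03, 1.141, 1.185, 1.56 and 1.89 FPKM, and those just outside had 0.711, 0.704, 0.493 and 0.422 FPKM. Since these values chose the cells, they are given without a test.

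The share of positive cells differed between plates. On HSC plate 1, 23 of 50 cells were positive (46.0%, exact binomial 95% interval 31.8 to 60.7%), and on the bled HSC plate 18 of 48 (37.5%, 23.95 to 52.65%). These plates stood above the rest. HSC plates 2 and 3 had 8 of 53 (15.1%, 6.75 to 27.6%) and 10 of 73 (13.7%, 6.77 to 23.75%). MPP1 plates 1 and 2 had 8 of 51 (15.7%, 7.02 to 28.6%) and 9 of 48 (18.75%, 8.95 to 32.6%), and the bled MPP1 plate had 8 of 50 (16.0%, 7.17 to 29.1%). The intervals cover counting error only. HSC plates from normal mice thus spanned the value of the bled HSC plate, and the bled MPP1 plate lay between the MPP1 plates from normal mice.

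Levels within positive cells also varied. Median Cd74 was 295.6 FPKM on HSC plate 1, 241.0 on HSC plate 3, 134.3 on the plate of bled HSC and 83.7 on that of bled MPP1. It was 70.7 FPKM on HSC plate 2, 59.8 on MPP1 plate 1 and 49.3 on MPP1 plate 2. The plates with higher medians were also those on which wells labelled as empty held Cd74.

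Wells with no cell set a background. Cd74 reached FPKM 1 in 4 of 21 such wells on HSC plate 1, 2 of 11 on HSC plate 3, 3 of 36 on the plate of bled HSC and 2 of 29 on that of bled MPP1, with a highest value of 7259 FPKM. It was found in 0 of 12 on HSC plate 2, 0 of 28 on MPP1 plate 1 and 0 of 13 on MPP1 plate 2, which allows shares of up to 25.0%, 10.7% and 23.1%. Empty wells had a median of 471 genes at FPKM 1 or more, against 2394 in the cells used. H2-Aa was present in 10 of 150 empty wells (6.67%), H2-Ab1 in 12 (8.00%) and H2-Eb1 in 2 (1.33%). None of the 11 empty wells with Cd74 also held H2-Aa. On HSC plate 3 the share of positive wells was not above that of empty wells, so single members from that plate, and part of those from the 3 others with Cd74 in empty wells, cannot be told apart from background. What part this background had in the results was not tested, and the main results are also given over the 3 plates without it (HSC plate 2 and both MPP1 plates).

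**Figure D1:**
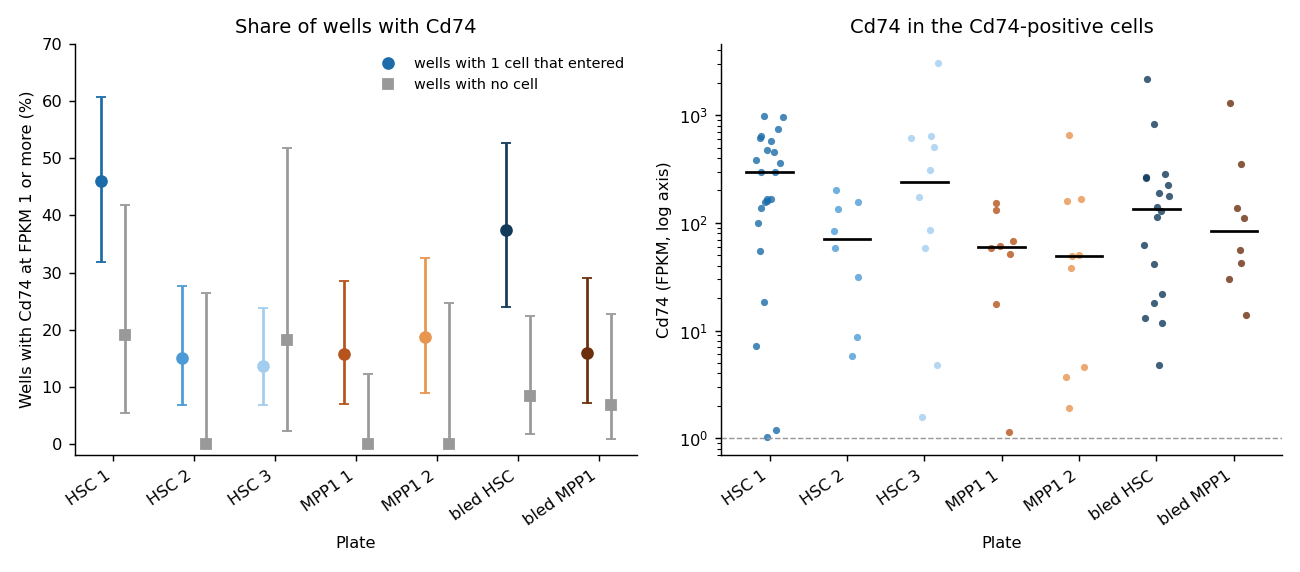
Left, percent of wells with Cd74 at FPKM 1 or more on each plate, for wells with 1 cell that entered (coloured circles) and wells with no cell (grey squares), with exact binomial 95% intervals. Right, Cd74 in FPKM on a log axis for each of the 84 positive cells, with the plate median as a black line and the threshold of 1 dashed; HSC plate 1 and the bled HSC plate have the highest shares, 46.0% and 37.5%.

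Positive cells did not have consistently more genes than negative cells. The median number of genes detected in positive cells minus that in negative cells was -215 on HSC plate 1, -267 on the bled MPP1 plate and 0 on MPP1 plate 1, and 158, 210, 308 and 133.5 on HSC plates 2 and 3, MPP1 plate 2 and the bled HSC plate. The mean difference was 46.8 ± 217.5 genes (SD, n = 7 plates; exact sign-flip permutation p = 0.594, two-sided). Differences in gene level below are nevertheless adjusted for the number of genes detected per cell. Each difference was estimated within a plate on log2(FPKM + 1), and the 7 plate values were tested with limma, with p adjusted (Benjamini-Hochberg) over 9111 genes present in at least 5% of cells. This scale understates the change of low genes.

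The other class II genes were more often present in Cd74-positive cells. Of the 9 listed (H2-Aa, H2-Ab1, H2-Eb1, H2-Eb2, H2-DMa, H2-DMb1, H2-DMb2, H2-Oa and H2-Ob), positive cells held a mean of 2.42 ± 0.838 and negative cells 1.19 ± 0.214 (SD over 7 plates). Adjusted for genes detected, the difference was 1.16 ± 0.701 genes per cell, higher on 7 of 7 plates (exact sign-flip permutation p = 0.0156, two-sided, the lowest value possible with 7 plates). It was 0.671 on HSC plate 1, 1.48 on HSC plate 2, 0.118 on HSC plate 3, 1.75 on MPP1 plate 1, 2.14 on MPP1 plate 2, 0.700 on the plate of bled HSC and 1.245 on that of bled MPP1. HSC plate 3 thus showed almost no difference, and MPP1 plate 2 the widest. H2-DMb1 and H2-DMb2 are near copies that may share reads, and 55 of the 57 cells with H2-DMb2 held both. Each was counted, so such cells may be counted 1 gene too high. Over the 3 plates with no Cd74 in empty wells the mean was 1.79 genes, all higher, with an exact permutation p of 0.25, the smallest that 3 plates allow.

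The presence of any class II gene at all was compared without adjustment for genes detected. At least 1 of the 9 was found in 86.0% ± 15.0 of positive and 68.5% ± 11.0 of negative cells, a difference of 17.5 ± 17.5 percentage points, higher on 6 of 7 plates (exact sign-flip permutation p = 0.0469, two-sided), and 15.3 points with the adjustment (exact permutation p = 0.0469). On HSC plate 1 the difference was -12.6 points (65.2% of positive and 77.8% of negative cells). Leaving out any plate but HSC plate 1 took the exact permutation p to between 0.0625 and 0.0938, so the call needed each of the other 6 plates.

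Both class II genes that passed the test over all genes encode the chains of a surface molecule, I-A. H2-Aa, the I-A alpha chain, was at FPKM 1 or more in 36 of 84 positive cells (42.9%) and in 32 of 289 negative cells (11.1%). On HSC plates 1, 2 and 3 it was found in 9 of 23, 2 of 8 and 3 of 10 positive cells, against 1 of 27, 5 of 45 and 6 of 63 negative cells. On MPP1 plates 1 and 2 it was found in 5 of 8 and 5 of 9 positive cells, against 6 of 43 and 5 of 39. On the bled HSC and bled MPP1 plates it was found in 7 of 18 and 5 of 8, against 2 of 30 and 7 of 42. The share was higher in positive cells on every plate, and the lowest share among positive cells, 25.0% on HSC plate 2, lay above the highest among negative cells, 16.7% on the bled MPP1 plate. H2-Aa was higher by 2.64 on the log2 scale (SE 0.32, adjusted p = 0.000138).

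H2-Ab1, which encodes the partner I-A beta chain, was present in 31 of 84 positive cells (36.9%) and 44 of 289 negative cells (15.2%). Positive cells with it numbered 7 of 23, 4 of 8 and 1 of 10 on the HSC plates, 3 of 8 and 4 of 9 on the MPP1 plates, 9 of 18 on the plate of bled HSC and 3 of 8 on that of bled MPP1. Negative cells with it numbered 4 of 27, 9 of 45 and 3 of 63, then 10 of 43 and 5 of 39, then 5 of 30 and 8 of 42. The share was higher in positive cells on each plate, but unlike that of H2-Aa it overlapped between the groups, since HSC plate 3 had only 10.0% in positive cells. The log2 difference was 1.64 (SE 0.30, adjusted p = 0.0388).

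H2-Eb1, the I-E beta chain, was found in 17 of 84 positive cells (20.2%) and 10 of 289 negative cells (3.46%). Positive cells with it numbered 6 of 23, 3 of 8 and 0 of 10 on the HSC plates, 2 of 8 and 4 of 9 on the MPP1 plates and 1 of 18 and 1 of 8 on the bled plates. Negative cells with it numbered 2 of 27, 0 of 45 and 1 of 63, 4 of 43 and 2 of 39, and 0 of 30 and 1 of 42. The share was higher in positive cells on 6 plates and lower on HSC plate 3. Its difference of 0.95 (SE 0.19) did not pass the adjusted threshold (adjusted p = 0.0585). It passed without HSC plate 3 (1.12, adjusted p = 0.00729) and not without any other plate (adjusted p from 0.0782 to 0.275), and was 1.54 over the 3 plates without Cd74 in empty wells (adjusted p = 0.11). Since H2-Eb1 was in under 5% of negative cells, it met the filter only through the positive cells, and its test is not independent of the filter.

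The chaperone genes did not pass the test. H2-DMa and H2-DMb1, which form the DM complex that loads peptides, were in 44 of 84 and 29 of 84 positive cells, against 127 of 289 and 55 of 289 negative cells. Their differences of 0.90 (SE 0.35) and 0.94 (SE 0.32) had adjusted p of 0.664 and 0.627. On MPP1 plates 1 and 2, H2-DMb1 was in 5 of 8 and 5 of 9 positive cells, against 8 of 43 and 7 of 39 negative cells. Its plate differences were 0.11, 1.28 and -0.07 on HSC plates 1, 2 and 3, 2.37 and 2.15 for MPP1, -0.21 for bled HSC and 0.92 for bled MPP1. Over the 3 plates without Cd74 in empty wells, H2-DMa and H2-DMb1 had differences of 1.65 and 1.94 (adjusted p = 0.872 and 0.778). H2-DMb2, a near copy of H2-DMb1 with which it may share reads, was in 19 of 84 and 38 of 289 cells, and 55 of these 57 cells held H2-DMb1 too (0.40, SE 0.20, adjusted p = 0.724). H2-Oa, a chain of the DO inhibitor of DM, was in 8 of 84 and 15 of 289 cells (0.20, SE 0.17, adjusted p = 0.883). H2-Ob, the other DO chain, was in 4 of 84 and 14 of 289 cells and was too rare to test, and H2-Eb2 was in none.

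Taking the class II genes together, 7 of the 9 were tested, all 7 had a difference above 0, and the median was 0.94 against -0.01 over all 9111 genes. The 7 include H2-DMb1 and its near copy H2-DMb2, which may share reads. Of the 7, H2-Aa and H2-Ab1 passed the adjusted threshold, where 0.0439% of all tested genes were called higher and none lower. At an unadjusted p under 0.05, 5 of the 7 were higher and none lower, against 3.31% and 3.58% of all genes. Without H2-Eb1, which met the filter through positive cells alone, all 6 were above 0 with a median of 0.92. Of all genes that met the filter in both kinds of cell, 50.4% were above 0. Over the 3 plates without Cd74 in empty wells the median of the 7 was 1.65. The list median was above 0 on each of the 7 plates, from 0.15 on HSC plate 1 to 1.82 on MPP1 plate 2.

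**Figure D2:**
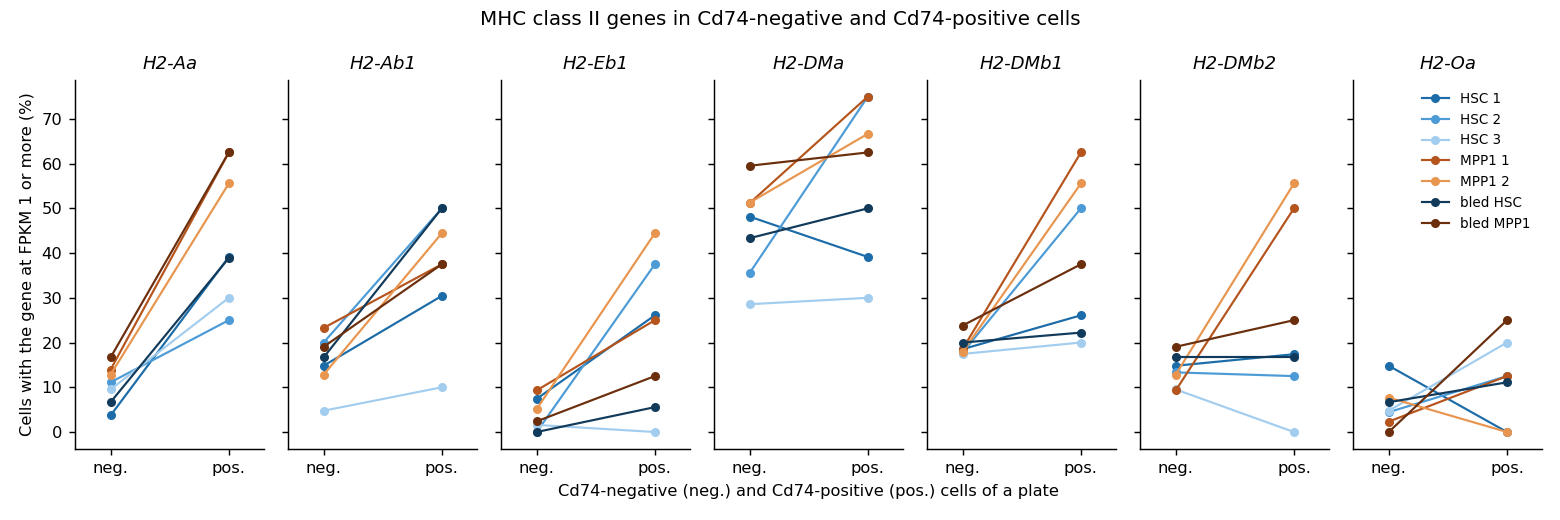
Percent of Cd74-negative and Cd74-positive cells with each class II gene at FPKM 1 or more; each line joins the 2 values of a plate. For H2-Aa and H2-Ab1 all 7 lines go up, for H2-Eb1 6 do, and the lines of H2-Oa cross.

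Positive cells rarely held the whole set. Of H2-Aa, H2-Ab1 and H2-Eb1, 31 of the 84 positive cells had none (36.9%), 31 had 1, 13 had 2 and 9 had all 3 (10.7%, exact binomial 95% interval 5.02 to 19.4%). Among the 289 negative cells, 220 had none (76.1%), 56 had 1, 9 had 2 and 4 had all 3 (1.38%, 0.380 to 3.51%). At least 2 of the 3 were found in 26.2% of positive and 4.50% of negative cells. Of the 9 positive cells with all 3, 4 were on HSC plate 1, 2 on each MPP1 plate and 1 on the bled HSC plate. Their levels were uneven: the fullest cell on MPP1 plate 1 had Cd74 at 152.0, H2-Aa at 664.9, H2-Ab1 at 511.2 and H2-Eb1 at 318.6 FPKM, while a cell on MPP1 plate 2 had 159.9, 2363, 344.8 and 1.87 FPKM.

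Detection of the same chains was also split by the level of Cd74. H2-Aa was in 2 of 12 cells with Cd74 from 1 to 10 FPKM, 12 of 26 with 10 to 100 and 22 of 46 with 100 or more. H2-Ab1 was in 3 of 12, 12 of 26 and 16 of 46 of these cells, and H2-Eb1 in 3 of 12, 3 of 26 and 11 of 46. The exact intervals of the 3 classes overlap for each gene (2.09 to 48.4%, 26.6 to 66.6% and 32.9 to 63.05% for H2-Aa), so no order is read from them.

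**Figure D3:**
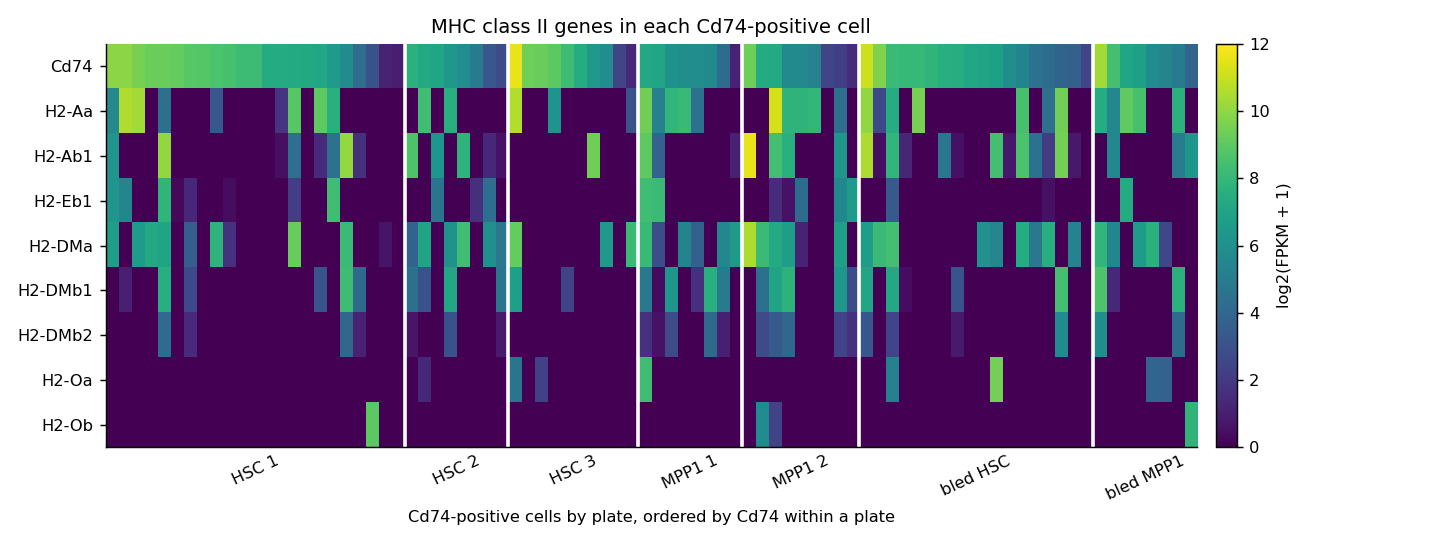
log2(FPKM + 1) of Cd74 and 8 class II genes in each of the 84 positive cells, grouped by plate and ordered by Cd74. Most columns are dark for most genes, and in only 9 cells are H2-Aa, H2-Ab1 and H2-Eb1 all at FPKM 1 or more.

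Genes that regulate class II transcription or process CD74 did not pass the test. Ciita, the master coactivator, was in 0 of 84 positive cells, which allows a share of up to 3.57%, and in 4 of 289 negative cells. Rfx5 was in 13 positive and 42 negative cells (15.5% and 14.5%), and Nfyb, a subunit of NF-Y, in 26 and 72 (0.70, SE 0.30, adjusted p = 0.711). Ctss, the cathepsin that cleaves the invariant chain in antigen-presenting cells, was in 15 of 84 positive (17.9%) and 19 of 289 negative cells (6.57%; 0.53, SE 0.22, adjusted p = 0.696). Ctsl, the related cathepsin L, was in 30 and 66 cells (0.62, SE 0.28, adjusted p = 0.714). Of 8 tested genes of this list, 6 were higher and 2 lower, with a median of 0.28 (0.69 over the 3 plates without Cd74 in empty wells), against 47.9% of all genes higher. At an unadjusted p under 0.05, 3 were higher (37.5%, against 3.31% of all genes).

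The receptor partners of CD74 showed no called change either. Mif, its ligand, was in 74 of 84 positive and 231 of 289 negative cells (0.18, SE 0.31, adjusted p = 0.953). Cd44, the co-receptor that signals for CD74, was in 37 and 162 cells (-0.54, SE 0.36, adjusted p = 0.832), and Cxcr4, another MIF receptor, in 24 and 87 cells (0.04, SE 0.27, adjusted p = 0.991). The 5 tested genes had a median of -0.06 with 2 above 0, which turned to 0.05 (4 above 0) with no adjustment for genes detected and to 0.37 (3 above 0) over the 3 plates without Cd74 in empty wells.

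Il2rg and Ifitm1 were the other genes that passed the threshold over all genes. Il2rg, the common gamma chain of receptors for interleukins such as IL-2 and IL-7, was in 67 of 84 positive (79.8%) and 143 of 289 negative cells (49.5%). Positive cells with it numbered 19 of 23, 7 of 8 and 8 of 10 on the HSC plates, 7 of 8 and 3 of 9 on the MPP1 plates, and 15 of 18 and 8 of 8 on the bled HSC and bled MPP1 plates. Negative cells with it numbered 16 of 27, 29 of 45 and 22 of 63, 20 of 43 and 17 of 39, and 14 of 30 and 25 of 42. It was more frequent in positive cells on 6 plates and less frequent on MPP1 plate 2, where the log2 difference was -0.14. The mean difference was 2.24 (SE 0.42, adjusted p = 0.0388).

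Ifitm1, an interferon-inducible membrane protein gene that is also high in HSC, was found in nearly all cells of both kinds (83 of 84 and 262 of 289), so it differed mainly in level. Mean log2(FPKM + 1) in positive and negative cells was 10.01 and 9.38 on HSC plate 1, 9.14 and 7.83 on plate 2, and 8.66 and 7.59 on plate 3. It was 8.75 and 6.33 on MPP1 plate 1, 6.71 and 5.02 on MPP1 plate 2, 10.62 and 9.68 on the plate of bled HSC and 9.76 and 7.61 on that of bled MPP1. The adjusted difference was above 0 on 7 of 7 plates, as for 0.67% of all tested genes, from 0.60 to 2.13, with a mean of 1.35 (SE 0.21, adjusted p = 0.00548). Ifitm3, a close relative with which short reads may be shared, had a difference of 0.89 (SE 0.19, adjusted p = 0.0754), above 0 on 7 plates.

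These 4 calls were not equally firm. H2-Aa stayed called whichever plate was left out. Ifitm1 was lost without the bled MPP1 plate (adjusted p = 0.0941), H2-Ab1 without 5 of the 7 plates in turn (all but HSC plate 3 and MPP1 plate 1) and Il2rg without 6 (all but MPP1 plate 2). With only the 3 plates that had no Cd74 in empty wells, the differences were 2.97 for H2-Aa, 1.94 for H2-Ab1, 1.72 for Il2rg and 1.69 for Ifitm1, and none passed (lowest adjusted p = 0.186). When all 13589 genes at FPKM 1 or more in at least 1 cell were tested, no gene was called.

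**Figure D4:**
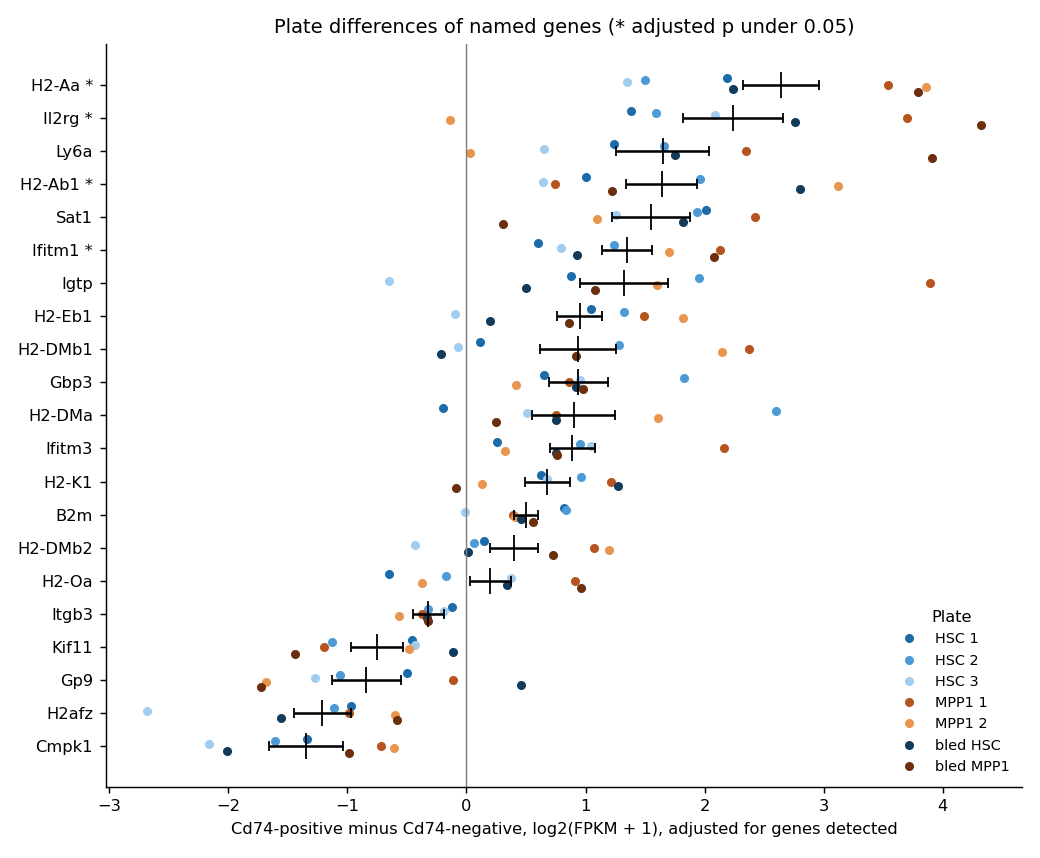
Difference between Cd74-positive and Cd74-negative cells in log2(FPKM + 1), adjusted for genes detected, on each of the 7 plates (coloured points) with the mean and its limma standard error (black). H2-Aa, H2-Ab1 and Ifitm1 lie above 0 on each plate, Il2rg on 6, and Cmpk1, H2afz and Kif11 below 0 on each.

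Among class I antigen presentation genes, B2m and H2-K1 had the smallest p in the higher direction, and neither passed. B2m, the light chain of class I molecules, was in every cell. Its plate means in positive and negative cells were 4147 and 2814 FPKM on HSC plate 1, 3064 and 1904 on plate 2, and 2280 and 1864 on plate 3. They were 2150 and 1884 FPKM on MPP1 plate 1, 1655 and 1345 on MPP1 plate 2, 3598 and 2656 on the plate of bled HSC and 2833 and 2382 on that of bled MPP1. Means were higher in positive cells on each plate, and after adjustment for genes detected the log2 difference was 0.50 (SE 0.10, adjusted p = 0.0585), above 0 on 6. H2-K1, a class I heavy chain whose reads can be shared with its paralogs, had a difference of 0.68 (SE 0.19, adjusted p = 0.409). Of 18 class I and processing genes, 14 were higher (77.8%, against 47.9% of all genes) and 4 lower, with a median of 0.29 (0.57 over the 3 plates without Cd74 in empty wells). At an unadjusted p under 0.05, 3 were higher (B2m, H2-K1 and the immunoproteasome subunit Psmb10) and 1 lower (the peptidase Erap1, -0.75, SE 0.29, adjusted p = 0.658), that is 16.7% and 5.56%, against 3.31% and 3.58% of all genes.

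Genes of the interferon gamma response had differences above 0 as a list, with no single gene called. All 16 tested genes were above 0 (14 when plate means of FPKM were taken before the log), with a median of 0.78, and 11 had an unadjusted p under 0.05, against 3.31% of all genes. Gbp3, a guanylate-binding GTPase, was in 30 of 84 positive (35.7%) and 50 of 289 negative cells (17.3%), with a difference of 0.94 (SE 0.25, adjusted p = 0.366) above 0 on 7 plates. Gbp9, of the same family, was in 17 positive (20.2%) and 11 negative cells (3.81%), and all 11 of these were on HSC plates 2 and 3 (6 of 45 and 5 of 63), so that on the other plates no negative cell held it. It met the filter on genes only through the positive cells, and without it 15 of 15 genes were above 0 with a median of 0.79. Of all genes that met the filter in both kinds of cell, 50.4% were above 0. Gbp genes are close paralogs, and their counts may share reads.

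Other members of the same response varied in size. Igtp, an immunity-related GTPase, was in 31 of 84 positive and 65 of 289 negative cells (1.32, SE 0.37, adjusted p = 0.467), with plate differences from -0.65 on HSC plate 3 to 3.89 on MPP1 plate 1. Irf1, which acts upstream of Ciita in the interferon gamma response, was in 38 and 117 cells (0.79, SE 0.33, adjusted p = 0.697). The receptor genes Ifngr1 and Ifngr2 had differences of 0.34 (SE 0.31, adjusted p = 0.886) and 0.13 (SE 0.19, adjusted p = 0.940). The list median was above 0 on each plate, from 0.14 on MPP1 plate 2 to 0.80 on HSC plate 2, and was 0.62 over the 3 plates without Cd74 in empty wells. In the type I interferon response 16 of 18 genes were above 0 with a median of 0.36, against 47.9% of all genes above 0. With plate means taken before the log these were 10 of 18 and 0.15. An unadjusted p under 0.05 was reached by 2 (11.1%, against 3.31% of all genes: Xaf1, 0.78, SE 0.29, adjusted p = 0.658, and Rsad2, 0.55, SE 0.25, adjusted p = 0.714), and the list median was below 0 on MPP1 plate 2 (-0.08) and the bled MPP1 plate (-0.31).

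Several stem cell genes were widely present in both Cd74-positive and Cd74-negative cells. Meis1 was in 77 of 84 positive and 262 of 289 negative cells (91.7% and 90.7%), Angpt1 in 78 and 267 (92.9% and 92.4%), Kit in 72 and 245 (85.7% and 84.8%) and Hlf in 70 and 221 (83.3% and 76.5%). Mecom, a transcription factor needed for long-term HSC, was in 50 and 137 cells (59.5% and 47.4%; 0.33, SE 0.31, adjusted p = 0.887), and Procr, the EPCR surface marker of HSC, in 31 and 76 (36.9% and 26.3%; 0.34, SE 0.31, adjusted p = 0.886). Of 36 HSC program genes, 26 were higher (72.2%, against 47.9% of all genes) and 10 lower, with a median of 0.16. Slamf1, which encodes CD150, was among the lower ones (14.3% of positive and 16.6% of negative cells, -0.17, SE 0.24, adjusted p = 0.940). When plate means of FPKM were taken before the log the list median turned to -0.12, on a scale where the median of all genes was -0.37. Ifitm1 was the 1 gene of the list that passed, and Ifitm3, Ly6a, Gimap6 and Trim47 were the others with an unadjusted p under 0.05. Together these were 13.9% of the list, all higher, against 3.31% of all genes.

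Ly6a, which encodes the Sca-1 surface antigen and responds to interferon, was in 64 of 84 positive (76.2%) and 149 of 289 negative cells (51.6%). Positive cells with it numbered 18 of 23, 7 of 8 and 5 of 10 on the HSC plates, 7 of 8 and 5 of 9 on the MPP1 plates, and 15 of 18 and 7 of 8 on the bled plates. Negative cells with it numbered 18 of 27, 30 of 45 and 27 of 63, 15 of 43 and 19 of 39, and 19 of 30 and 21 of 42. Its share was higher in positive cells on each plate, most on MPP1 plate 1 and the bled MPP1 plate and least on MPP1 plate 2. The difference was 1.65 (SE 0.39), with an adjusted p of 0.193. Gimap6, a lymphoid GTPase also found in HSC, was in 79 and 226 cells (94.05% and 78.2%; 1.37, SE 0.33, adjusted p = 0.221).

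No gene was called lower in positive cells (limma, 326 genes at an unadjusted p under 0.05). The cell division lists lay below 0. All 25 G2/M genes were lower, with a median of -0.47, and 13 had an unadjusted p under 0.05, against 3.58% of all genes. In cells with at least 2000 genes 2 of the 25 turned higher. Of the 25, 11 met the filter only through the negative cells, Kif11 among them, as did 663 of all 9111 tested genes. The other 14 were all lower, with a median of -0.47 and 6 at an unadjusted p under 0.05 (42.9%). Among all 8338 genes that met the filter in both kinds of cell, 4134 were lower, and 2.72% were lower at an unadjusted p under 0.05. Over the 3 plates without Cd74 in empty wells the median was -0.57. Kif11, a spindle motor, was in 2 of 84 positive (2.38%) and 47 of 289 negative cells (16.3%; -0.75, SE 0.22, adjusted p = 0.483). It was in 0 of 23, 0 of 8 and 0 of 10 positive cells on the HSC plates and in 4 of 27, 10 of 45 and 3 of 63 negative cells. It was in 0 of 8 and 1 of 9 positive cells on the MPP1 plates against 9 of 43 and 9 of 39, and in 1 of 18 and 0 of 8 on the bled plates against 1 of 30 and 11 of 42. Mki67, a marker of cycling cells, was in 13 and 84 cells (15.5% and 29.1%; -0.70, SE 0.28, adjusted p = 0.684), and Cdk1, the mitotic kinase, in 9 and 61 (10.7% and 21.1%; -0.67, SE 0.25, adjusted p = 0.658). The G2/M median was below 0 on 6 plates, from -1.15 on HSC plate 2 to -0.04 on the bled HSC plate, and was 0.10 on MPP1 plate 2.

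Of 22 S phase genes 19 were lower, with a median of -0.27, against 47.9% of all genes higher, and 3 (13.6%, against 3.58% of all genes) had an unadjusted p under 0.05. These were Uhrf1, a DNA methylation maintenance factor (19 of 84 positive and 116 of 289 negative cells, 22.6% and 40.1%; -0.81, SE 0.30, adjusted p = 0.658), Prim1, a primase subunit (-0.76, SE 0.29, adjusted p = 0.661), and Tyms, thymidylate synthase (-0.58, SE 0.27, adjusted p = 0.714). H2afz, which encodes the histone variant H2A.Z, had the smallest p among lower genes (-1.21, SE 0.24, adjusted p = 0.0585). It was below 0 on 7 plates, as for 1.73% of all tested genes, from -2.68 on HSC plate 3 to -0.58 on the bled MPP1 plate. Cmpk1, a nucleotide kinase, was in 19 of 84 positive (22.6%) and 132 of 289 negative cells (45.7%; -1.35, SE 0.31, adjusted p = 0.193).

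Differentiation lists gave no called gene. Of 14 megakaryocyte genes, 11 were lower and 3 higher (21.4%, against 47.9% of all genes), with a median of -0.19. Among the 11 that met the filter in both kinds of cell 8 were lower, with a median of -0.09, against 4134 lower of all 8338 such genes. Gp9, a platelet glycoprotein, was in 14 of 84 positive and 70 of 289 negative cells (16.7% and 24.2%, -0.84, SE 0.29, adjusted p = 0.627). Itgb3, the beta chain of the fibrinogen receptor, was in 2 and 35 cells (2.38% and 12.1%, -0.32, SE 0.13, adjusted p = 0.676). Itgb3 met the filter only through the negative cells, so its test is not independent of the filter. Of 11 lymphoid priming genes 8 were higher (72.7%, against 47.9% of all genes) with a median of 0.09. These turned to 4 of 11 and -0.21 when plate means were taken before the log. Lsp1, a leukocyte actin-binding protein, was in 64 and 158 cells (76.2% and 54.7%; 1.29, SE 0.42, adjusted p = 0.604). The early lymphoid genes Dntt, Rag1 and Rag2 were in 0 positive and 0 negative cells, and Il7r in 0 and 1, so both kinds of cell were alike here. Immediate early genes were split, with 7 higher and 9 lower of 16, and 14 housekeeping genes had a median of 0.03, which turned to -0.10 with plate means taken before the log.

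**Figure D5:**
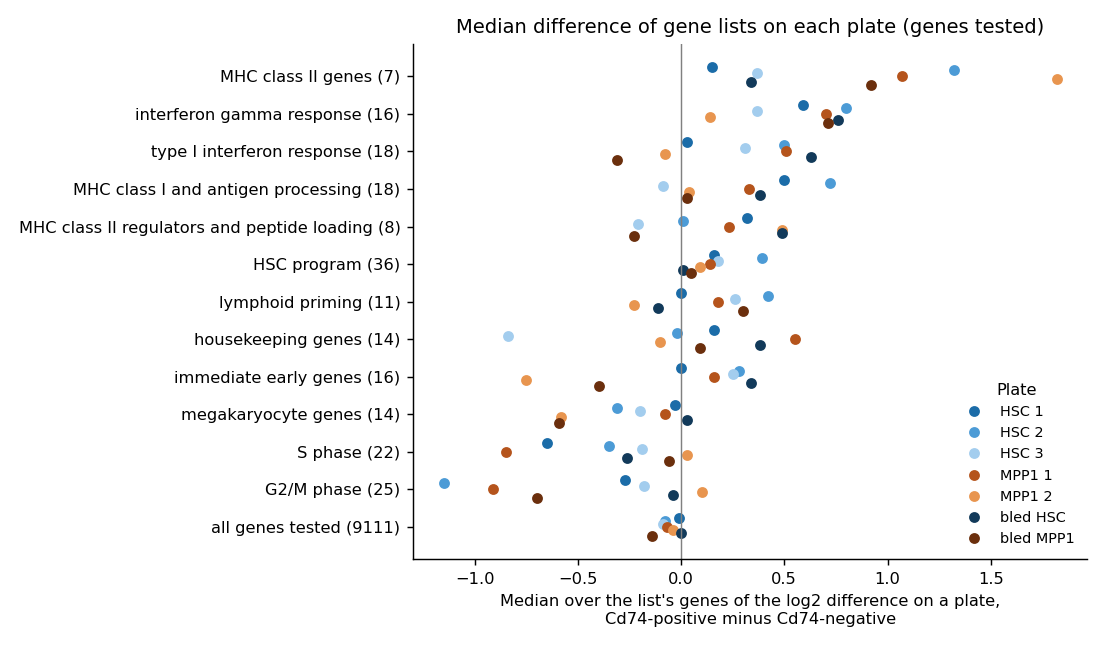
Median log2 difference between Cd74-positive and Cd74-negative cells over the tested genes of each list (their number in brackets), on each of the 7 plates. Class II and interferon gamma response medians lie above 0 on each plate, G2/M medians below 0 on all but MPP1 plate 2, and medians of all genes between -0.14 and 0.00.

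Many markers of mature cells that normally express class II were in no positive cell, and others were present. Absence was common among all genes too: of 21664 listed genes, 13589 other than Cd74 were at FPKM 1 or more in at least 1 of the 373 cells. The share of all genes found in no positive cell was not counted, so the marker counts are not read as particular to these markers. Of 14 B and plasma cell markers in the tables, 9 were in no positive cell, among them Ms4a1, Pax5, Ebf1 and Cd22, which were in no negative cell either. Cd79a was in 1 positive cell, and only Cd79b was widespread (26 of 84 positive and 77 of 289 negative cells, 31.0% and 26.6%). Of 17 dendritic cell markers 9 were in no positive cell, among them Itgax, Siglech, Cd209a and Batf3, which were in no negative cell either. Irf8 was in 3 positive and 6 negative cells (3.57% and 2.08%, up to 835.7 FPKM in positive cells), Xcr1 in 2 and 3 (2.38% and 1.04%) and Clec9a in 1 and 2 (1.19% and 0.692%). Id2 was in 17 and 40 (20.2% and 13.8%) and Naaa in 5 and 15 (5.95% and 5.19%). Cst3 (68 and 226 cells) and Tcf4 (62 and 173 cells), the most frequent of that list, are not restricted to dendritic cells. Of 18 monocyte and macrophage markers 12 were in no positive cell, among them Csf1r, Emr1, Cd14 and the C1q genes, each of which was in 0 or 1 negative cell. Cd68 was in 8 positive and 16 negative cells (9.52% and 5.54%), Axl in 5 and 9 (5.95% and 3.11%) and Itgam in 3 and 5 (3.57% and 1.73%). Lyz2 was in 46 positive and 171 negative cells (54.8% and 59.2%).

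Marker levels were also summed over each list. The B and plasma cell sum ran from 0 to 1204 FPKM in positive cells and from 0 to 1493 in negative cells, with medians of 0. The dendritic cell sum ran from 0 to 2185 and from 0 to 1815, with medians of 166.2 and 150.2. For monocyte and macrophage markers it ran from 0 to 1085 and from 0 to 2782, with medians of 26.3 and 30.9. Neutrophil markers reached 23.6 in positive and 490.7 FPKM in negative cells, T and NK cell markers 750.2 and 3283, and endothelial and stromal markers 785.9 and 931.3, with medians under 1. What part cells of other types had in the results was not tested. Among the RNAs of the sort markers, Cd48 was in 1 positive and 9 negative cells, Flt3 (CD135) in 7 and 25, Slamf1 (CD150) in 12 and 48, and Cd34 in 42 and 149.

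The association was compared between cell types through the plate differences of the 4 HSC and 3 MPP1 plates, bled plates included. No gene passed the adjusted threshold (limma, 530 of 9111 genes, 5.82%, at an unadjusted p under 0.05). H2-Aa had plate differences of 2.19, 1.5, 1.35 and 2.24 on the HSC plates and 3.54, 3.86 and 3.79 on the MPP1 plates. The difference between cell types was 1.91 (limma unadjusted p = 0.00115, adjusted p = 0.798). For H2-DMb1, H2-DMb2 and H2-Eb1 it was 1.54, 1.06 and 0.77 (adjusted p = 0.798, 0.798 and 0.835), and for H2-Oa and H2-DMa 0.52 and -0.04. HSC plates 1 and 3 and the bled HSC plate had Cd74 in empty wells, but only the bled plate did among MPP1 plates. Cell type is thus partly mixed with that background. H2-Ab1 was 1.00, 1.96, 0.64 and 2.80 on the HSC plates and 0.74, 3.12 and 1.22 on the MPP1 plates (0.09, adjusted p = 0.989). Each bled group had 1 plate, so bled and normal mice were not tested against each other within the positive cells. H2-Aa differences on the bled plates, 2.24 and 3.79, lay close to or within those of the normal plates of the same cell type.

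Cd74 was also read in 18 sorted bulk populations, with 1 library of 1000 cells each. These values come from a separate table and have no replicate. The HSC and MPP1 libraries had 2866 and 3392 genes at FPKM 1 or more, and that of mature megakaryocytes 1642. Ly6a, in 76.2% of Cd74-positive and 51.6% of Cd74-negative single cells, was 0.08 FPKM in bulk HSC and 0.63 in bulk MPP1. A low bulk value is thus a weak sign of absence, and levels are not directly comparable with those of single wells. Cd74 was 57.0 FPKM in common lymphoid progenitors with high Sca-1, 37.2 in mature megakaryocytes and 13.4 in common lymphoid progenitors, and below 0.6 in the 15 others. In bulk it was 0.578 FPKM in HSC and 0.145 in MPP1, and the label of the bulk HSC library gives CD34+, the same marker set as MPP1. H2-Aa was 13.1 FPKM in the lymphoid progenitors with high Sca-1, 4.35 in mature megakaryocytes and 4.27 in pre-granulocyte-monocyte cells, and 0.111 in HSC and 0.241 in MPP1. The orders were not the same: H2-Aa was 0.267 FPKM in common lymphoid progenitors, Cd74 was listed at 0 in pre-granulocyte-monocyte cells, and H2-Eb1 was highest, at 27.4 FPKM, in pre-erythroid colony-forming cells, where Cd74 was 0.0137. In single wells the mean of Cd74 over all cells of a plate, positive and negative, was between 10.6 FPKM on MPP1 plate 1 and 155.4 on HSC plate 1. In bulk, fewer cells of a type and less RNA per cell cannot be told apart.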

How the data were processed

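The authors deposited FPKM values, 1 per gene and well, in 3 single-cell tables made separately and 1 bulk table. TopHat 1.3.3 and Cufflinks 1.2.1 with build mm9, and Bowtie2 2.2.1 for HSC plate 3 in addition, are named in the submitters' processing notes. Read depth is unknown, since FPKM does not keep it; FPKM is relative to each library's own total, and values of 0 can be failed estimates. A repeat run of HSC plate 1 (96 samples) was not analysed as such, and the plate's columns could hold either run. No pair of columns was identical. The 7 plates reuse the same set of 108 well barcodes.

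For each gene and plate, log2(FPKM + 1), with a pseudocount of 1, was regressed over cells on Cd74 status and log2 genes detected. The 7 coefficients were tested against 0 with limma 3.58.1 in R 4.3.3 (intensity trend, two-sided, Benjamini-Hochberg threshold 0.05). The fit was also run with Cd74 status permuted within plates and log2 shifts of size 2 or 4 added to 100 genes each. It called 99 and 100 of these, and 5 of 8911 unchanged genes. The shift was the same in every relabelled positive cell, unlike a change in how many cells hold a gene. The rates for shifted genes therefore do not carry over to the real differences. The 5 calls among unchanged genes came from a single relabelling, in a fit where the shifted genes eased the adjusted threshold. They are thus not a rate for the calls in the real comparison either. The plate is the replicate, so positive and negative cells are paired by plate. The p-values rest on the spread between plates, which may be technical. In limma, each gene's spread was drawn towards a trend over all genes. The SE and p given for a gene therefore do not measure its own spread alone. Per-cell counts of class II genes were tested by exact sign-flip permutation over plates in Python 3.11.15. Doublets were not called; wells labelled with 2 or more cells were left out. The genes named are the class II list, called genes, the 5 per direction with the smallest p among genes with 1 sign on all plates, and up to 3 per list by p; other list members named were chosen after their values were seen. The members and the 23 gene lists were chosen with earlier results of these data known. Of 383 list symbols 376 were matched, 8 of them by synonym. Alternatives were other scales, pseudocounts, filters, thresholds, weights and left-out plates. Values over genes that met the filter in both kinds of cell were added after seeing the data. Some genes of the lists are not reported here.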

Additional observations from a re-analysis of the deposited data

Results flagged for a closer look

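The plate difference of Ifitm3 on MPP1 plate 1, 2.16 on the log2 scale, lay far from those of the other 6 plates, which ran from 0.26 to 1.05. It was the 1 such value among 19 sets of values examined, and chance alone gives about 1 in 20. In wells labelled with 2 or more cells, which no comparison used, Cd74 reached FPKM 1 in 37.1% (23 of 62, exact binomial 95% interval 25.2 to 50.3%), against 22.5% of the 373 single cells and 7.33% of the 150 wells with no cell. H2-Aa was present in 8 of the 23 such wells with Cd74 and in 9 of the 39 without it.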

How the results depend on the processing

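The 4 called genes became 8 with a pseudocount of 0.1, 7 with plates weighted by cells, and 2 (others, both lower) when FPKM was averaged before the log, which moved the median of all genes to -0.37. They became 0 with no filter on genes (13589 tested), 1 in cells with at least 2000 genes, 1 with normal mice only, and 1 (H2-Aa) in the fit without the replicate block, which does not pair cells by plate. Leaving out a plate gave 1 to 6 calls. The 3 plates with no Cd74 in empty wells, an alternative chosen after seeing the data, gave 0 (limma; 473 at an unadjusted p under 0.05). The 16 genes followed through all alternatives were the class II genes tested, the called genes and those with the smallest p among genes with 1 sign on all plates. None changed sign. For genes with 1 sign on all plates, leaving out plates could not have changed it, so those alternatives do not test their sign. H2-Aa was called in 16 of 19 alternatives. Cd79b, the 1 tested B cell marker, turned from 0.08 to -1.06 with FPKM averaged before the log and to -0.40 on those 3 plates.

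Class II genes per cell were higher by 1.23 with normal mice only and by 1.79 on those 3 plates; 5 and 3 plates cannot give an exact permutation p under 0.0625 and 0.25. The share with any class II gene was higher by 10.5 points in cells with at least 2000 genes (exact permutation p = 0.141), by 13.0 to 22.5 points leaving out a plate (HSC plate 2 and HSC plate 1), by 18.1 with normal mice only, by 30.6 on those 3 plates and by 18.2 with detection at FPKM 5. The difference in genes detected turned to -25.1 with Cd74 at FPKM 5, -25.7 at FPKM 10 and -2.0 in cells with at least 2000 genes. The cause was not tested. There were 8 to 10 positive cells on 5 of the plates.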
